A study of Mus musculus with 3 samples.

Results

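Epithelial to mesenchymal transition (EMT) genes were followed in the E6.5 embryo by RNA-seq in 3 genotypes of the tw18 lethal. The set was chosen by name and holds 10 of the 23421 genes in the deposited table: the transcription factors *Snai1*, *Snai2*, *Twist1*, *Twist2*, *Zeb1* and *Zeb2*, the mesenchymal products *Vim* and *Fn1*, and *Crb2* and *Epb41l5*, which are needed for cells to leave the epiblast. All 10 were found, *Epb41l5* under its older symbol *Epb4.1l5*. None of them lies on the chromosome that carries the tw18 deletion.

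The embryos came from matings of tw18/+ mice on the 129/SvEv background and were taken at embryonic day 6.5. In its in situ hybridizations of this day, the study describes the mutant embryos as slightly younger. It also names non-inbred backgrounds that differ between embryos as a possible source of the variable phenotype. With 1 library per genotype, stage and background cannot be told apart from genotype. There was 1 library each from wild-type (WT), heterozygous (tw18/+) and homozygous (tw18/tw18) embryos, and how many embryos went into each is not given in the sources used here. The tw18 allele is a deletion that removes *Ppp2r1a*, the scaffold subunit of the phosphatase PP2A, together with neighbouring genes, so each tw18/tw18 value belongs to the whole deletion. The labels name the tissue epiblast, whereas the study's methods describe the embryo proper, which also carries its surrounding visceral endoderm. With 1 library per genotype no difference has a replicate check, and no p-value is given. All 3 comparisons share libraries and are not independent of each other.

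At gastrulation, cells of the posterior epiblast lose their epithelial shape at the primitive streak, break through the basement membrane and migrate away as mesoderm and definitive endoderm. SNAI1, induced downstream of FGF signalling, represses the E-cadherin gene *Cdh1*, and the SNAI, ZEB and TWIST proteins bind E-box motifs in DNA. CRB2, a transmembrane polarity protein, drives the ingression of single cells through the streak, and EPB41L5 remodels the adhesions and actin of cells that leave it. SNAI2, TWIST, ZEB and vimentin are also made by mesenchyme and stroma that arose earlier or elsewhere, including that of the uterus.

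FPKM is the number of fragments on a gene per unit of transcript length and of library size, so levels can be compared between genes and are relative to the rest of the library. The depth, estimated from the steps between low FPKM values, was 1.42 times that of WT in tw18/+ and 1.41 times in tw18/tw18, and 73.0% to 76.1% of these low values came within 0.2 fragments of a whole number, so fragment numbers are estimates. *Ppp2r1a* had an FPKM of 146 in WT, 81.7 in tw18/+ and 12.8 in tw18/tw18, which follows the order of the labels. The tw18/tw18 value was not 0, although the gene lies in the deletion: it came from about 593 fragments and was 11.5-fold below WT. The source of these fragments was not tested. The 10 epiblast markers and the 10 visceral endoderm markers all had an FPKM of at least 1 in all 3 libraries. The summed FPKM of the epiblast markers was 1958 in WT, 2074 in tw18/+ and 1020 in tw18/tw18, and that of the visceral endoderm markers was 891, 877 and 1153. In such bulk samples, fewer cells of a type and less RNA per cell cannot be told apart.

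Markers of other tissues were present as well, and several stood highest in tw18/tw18. Of 12 decidual stroma markers none was listed at 0 in any library, and their summed FPKM was 1700 in WT, 324 in tw18/+ and 936 in tw18/tw18. The prolactin family hormone gene *Prl8a2* made up most of this in WT, with 1504 against 155 and 377. Without it, the other 11 summed to 196, 169 and 559, with the order tw18/+ below WT below tw18/tw18. The 10 endothelial markers followed the same order with sums of 59.6 in WT, 48.5 in tw18/+ and 119.8 in tw18/tw18, as did the 10 immune markers with 24.0, 16.2 and 42.6, among which *C1qa* was listed at 0 in WT. The sums of the 9 parietal endoderm markers were 478, 590 and 1175.

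A gene was called higher or lower where its FPKM differed by at least 2-fold and the higher value was at least 1. Against WT, tw18/tw18 had 3 members higher, *Snai2*, *Twist1* and *Zeb2*, and 1 lower, *Crb2*, out of 10. Over all genes tested, 15.1% were called higher and 6.94% lower in this comparison. The 10 members had a median difference of 0.48 on the log2(FPKM + 1) scale, beside -0.0074 over all genes. In tw18/+ against WT, 1 of the 9 members that reached an FPKM of 1 was higher, *Snai2*, and 1 was lower, *Crb2*, beside 4.7% and 5.02% of all genes. The median difference over all 10 members was -0.34. In tw18/tw18 against tw18/+, 4 of 9 were higher, *Twist2*, *Zeb1*, *Zeb2* and *Vim*, and 0 were lower, beside 14.9% and 5.65% of all genes. The median difference over all 10 members was 0.41. Intervals given with log2 ratios are 95% exact binomial intervals on the estimated fragments, and cover counting error only. They take fragments as independent, so where fragments are PCR copies of the same molecule the intervals are too narrow.

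**Figure D1:**
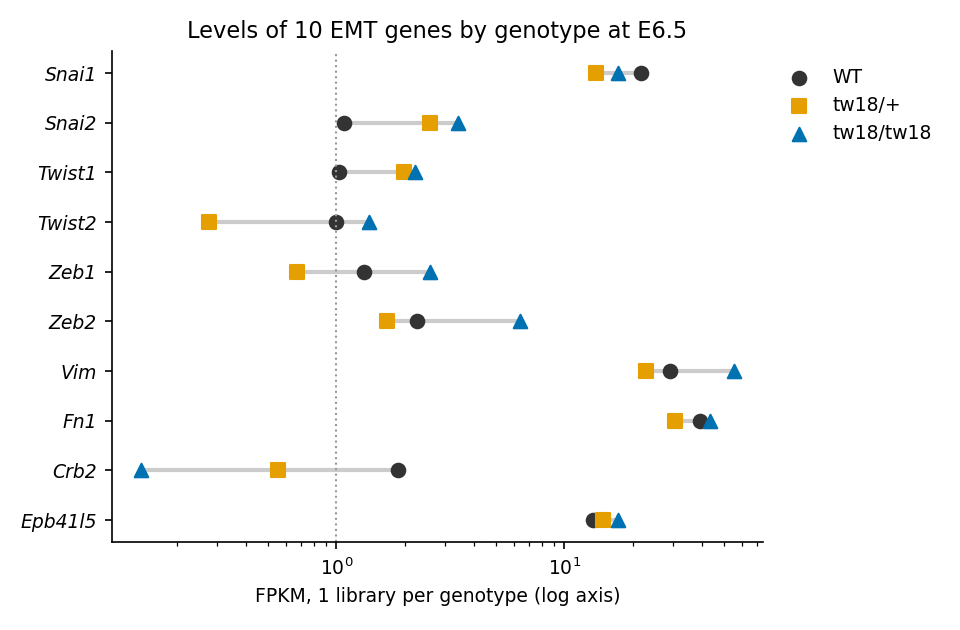
FPKM of the 10 EMT genes on a log axis, with 1 point per library: WT (circles), tw18/+ (squares) and tw18/tw18 (triangles); the dotted line marks an FPKM of 1. *Crb2* runs from 1.86 in WT down to 0.139 in tw18/tw18, while *Twist2*, *Zeb1*, *Zeb2*, *Vim* and *Fn1* are lowest in tw18/+ and highest in tw18/tw18.

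*Crb2* showed the largest difference among the members. Its FPKM was 1.86 in WT, 0.553 in tw18/+ and 0.139 in tw18/tw18, from about 169, 71 and 18 fragments. It was thus lower in both libraries that carry the deletion and lowest in the homozygous one. The level was 13.4-fold lower in tw18/tw18 than in WT, with a log2 ratio of -3.74 and an interval of -4.51 to -3.02. In tw18/+ it was 3.37-fold lower than in WT, with a log2 ratio of -1.75 and an interval of -2.17 to -1.34. Between tw18/tw18 and tw18/+ the log2 ratio was -1.99 with an interval of -2.80 to -1.21, but both values were under the FPKM of 1 that a call required. With a pseudocount of 1 the decrease in tw18/+ no longer passed the threshold, at a difference of -0.88. *Crb2* lies on Chr 2 from 37776249 to 37799103 (GRCm38, plus strand), and an exon of *Dennd1a* overlaps it on the other strand. *Dennd1a* went the other way, with an FPKM of 6.26, 6.96 and 10.7, and 0.956% of the 50 bp words of the *Crb2* transcripts also occur in it.

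Genes that build or act with the Crumbs complex were read beside *Crb2*. Of 17 such genes, which include *Crb1* and *Crb3*, the PAR and LIN7 proteins, the atypical protein kinase C gene *Prkci*, the O-glucosyltransferase gene *Poglut1* and the myosin II heavy chain genes, 15 reached an FPKM of 1 in tw18/tw18 or WT. Of these, 0 were lower and 1 was higher, the LIN7 scaffold gene *Lin7b*, with 0.101 in WT, listed at 0 in tw18/+ and 1.75 in tw18/tw18. Over all genes 6.94% were lower and 15.1% higher in this comparison, and with 15 genes the count is read no further. *Crb1* stayed under an FPKM of 1, with 0.385 in WT and listed at 0 in the other libraries. The 15 genes had a median difference of 0.08 on the log2(FPKM + 1) scale. In tw18/+ against WT, 0 were lower and 1 of 14 was higher, *Pard6a*, a PAR complex adaptor gene named here after its values were seen. Over all genes 5.02% were lower and 4.7% higher in that comparison.

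*Epb41l5*, a FERM domain protein gene, had an FPKM of 13.4 in WT, 14.8 in tw18/+ and 17.1 in tw18/tw18. The log2 ratio of tw18/tw18 to WT was 0.35 with an interval of 0.26 to 0.45, below the threshold. The ratio passed the threshold, with 1.05, when the libraries were centred on the epiblast markers. Of 11 genes of the band 4.1 family and of EPB41L5 partners, 1 was higher in tw18/tw18 than in WT, the focal adhesion adaptor gene *Pxn* (paxillin) with 11.1, 12.1 and 23.1, and 0 were lower. Over all genes 15.1% were higher and 6.94% lower in this comparison, and with 11 genes the count is read no further. None of the 11 was called in tw18/+ against WT, where 4.7% of all genes were higher and 5.02% lower.

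*Snai1* was the most abundant of the 6 transcription factor genes in all 3 libraries. Its FPKM was 21.6 in WT, 13.8 in tw18/+ and 17.3 in tw18/tw18, with WT the highest and tw18/+ the lowest. The log2 ratio to WT was -0.65 in tw18/+, with an interval of -0.84 to -0.45, and -0.32 in tw18/tw18, with an interval of -0.51 to -0.14. Neither passed the threshold, and the tw18/tw18 ratio turned to 0.38 when the libraries were centred on the epiblast markers. Beside it stand genes that act upstream at the streak. *Eomes*, a T-box activator of mesoderm and endoderm genes, had 77.1 in WT, 58.0 in tw18/+ and 37.0 in tw18/tw18, and *Fgf8*, the main FGF ligand of the streak, had 27.6, 20.9 and 10.1.

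*Snai2* rose above the threshold in both libraries with the deletion. Its FPKM was 1.08 in WT, 2.58 in tw18/+ and 3.42 in tw18/tw18, from about 30, 100 and 132 fragments. The log2 ratio to WT was 1.66 in tw18/tw18, with an interval of 1.06 to 2.27, and 1.26 in tw18/+, with an interval of 0.63 to 1.88. Between tw18/tw18 and tw18/+ it was 0.41, with an interval of 0.024 to 0.80. *Snai1* stood 19.99-fold above *Snai2* in WT and 5.34-fold and 5.04-fold above it in tw18/+ and tw18/tw18, so the balance between the SNAI genes differed between WT and both other libraries. With a pseudocount of 1 *Snai2* remained above the threshold in tw18/tw18 (1.09) but not in tw18/+ (0.78).

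*Twist1*, which encodes a basic helix-loop-helix factor of mesoderm, moved in the same direction as *Snai2*. Its FPKM was 1.02 in WT, 1.97 in tw18/+ and 2.21 in tw18/tw18, from about 22, 60 and 67 fragments. The log2 ratio to WT was 1.11 in tw18/tw18, with an interval of 0.40 to 1.88, and 0.95 in tw18/+, with an interval of 0.22 to 1.72, just outside the threshold. Between tw18/tw18 and tw18/+ the interval of -0.36 to 0.70 included 0. With a pseudocount of 1 the difference between tw18/tw18 and WT was 0.67, below the threshold.

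*Twist2* was the least abundant transcription factor gene, with an FPKM of 0.993 in WT, 0.277 in tw18/+ and 1.39 in tw18/tw18, from about 17, 7 and 34 fragments. It was lowest in tw18/+, and tw18/tw18 and WT could not be told apart at this depth, with a log2 ratio of 0.49 and an interval of -0.37 to 1.44. The log2 ratio of tw18/tw18 to tw18/+ was 2.33, with a wide interval of 1.09 to 3.71, and with a pseudocount of 1 it was 0.91, below the threshold. Against WT the tw18/+ level had a log2 ratio of -1.84, with an interval of -3.29 to -0.44, but the WT value fell just under an FPKM of 1. The ratio of *Twist1* to *Twist2* was 1.03 in WT, 7.13 in tw18/+ and 1.59 in tw18/tw18. An antisense gene, *Gm29100*, shares 45.7% of the 50 bp words of the *Twist2* transcripts. The libraries keep strand, but the strand setting of the FPKM calculation is not given in the sources used here.

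*Zeb1* and *Zeb2*, which encode zinc finger and homeodomain repressors, shared the order of *Twist2*. The FPKM of *Zeb2* was 2.25 in WT, 1.67 in tw18/+ and 6.41 in tw18/tw18, from about 180, 189 and 721 fragments. Its tw18/tw18 value was far above the other 2, with log2 ratios of 1.51 to WT (interval 1.27 to 1.75) and 1.94 to tw18/+ (interval 1.71 to 2.18). The FPKM of *Zeb1* was 1.32 in WT, 0.670 in tw18/+ and 2.58 in tw18/tw18. The 3 libraries of *Zeb1* were spaced by nearly the same ratio, with log2 ratios of 0.96 for tw18/tw18 to WT (interval 0.64 to 1.29) and -0.98 for tw18/+ to WT (interval -1.42 to -0.55), both just outside the threshold. The log2 ratio of tw18/tw18 to tw18/+ was 1.94. *Zeb1* passed the threshold in tw18/tw18 against WT when the libraries were centred on the median ratio of all genes (1.01) or rescaled to equal sums (1.18). *Zeb2* stood above *Zeb1* in each library, by 1.70-fold in WT, 2.50-fold in tw18/+ and 2.49-fold in tw18/tw18.

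**Figure D2:**
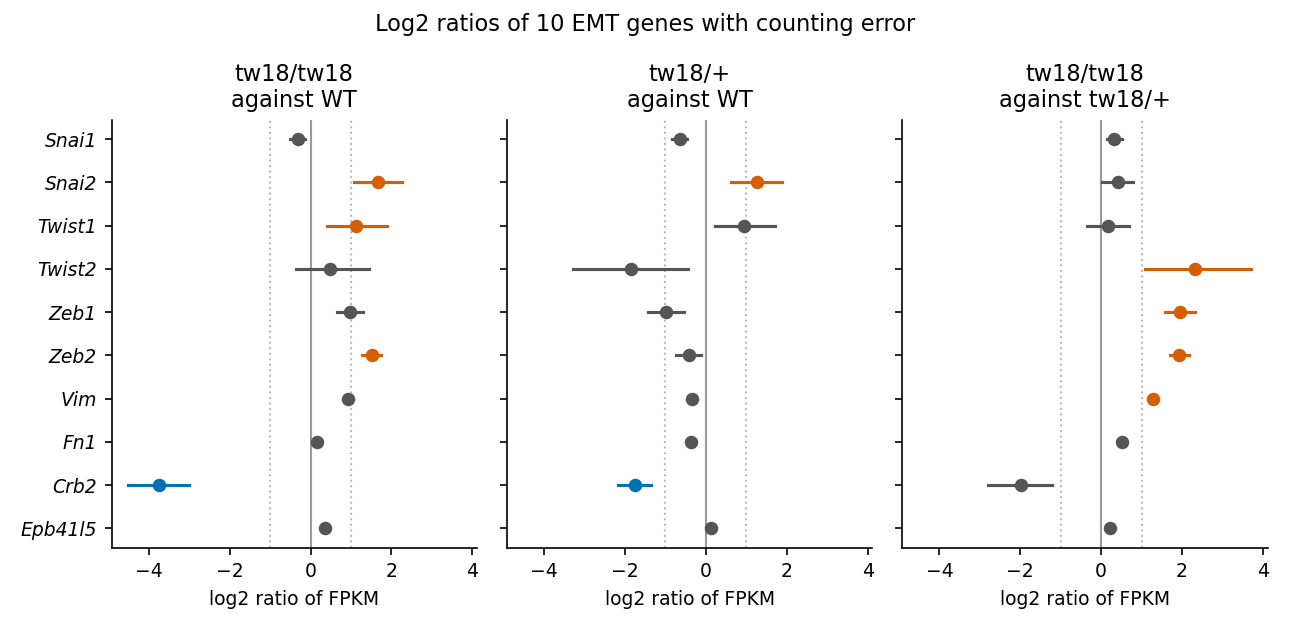
Log2 ratios of FPKM of the 10 EMT genes in the 3 comparisons of libraries, with 95% intervals for counting error; vertical dotted lines mark the 2-fold threshold, and colour marks genes called higher (orange) or lower (blue). *Snai2* is called higher and *Crb2* lower against WT in both libraries with the deletion, whereas *Twist2*, *Zeb1*, *Zeb2* and *Vim* are called higher in tw18/tw18 against tw18/+.

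The partners through which these factors repress their targets, or which change their stability, showed 0 calls in either direction in tw18/tw18 against WT and in tw18/+ against WT. The 13 genes encode the demethylase KDM1A, the deacetylases HDAC1 and HDAC2, the corepressors RCOR1, SIN3A, CTBP1 and CTBP2, the methyltransferase EZH2, the kinase GSK3B, the ubiquitin ligase subunit BTRC and the E-proteins TCF3, TCF4 and TCF12 that pair with TWIST. Over all genes, 15.1% were higher and 6.94% lower in the first comparison, and 4.7% and 5.02% in the second, and with 13 genes the count is read no further. All 13 had an FPKM of at least 1 in each library, with a sum of 637 in WT, 663 in tw18/+ and 514 in tw18/tw18. In tw18/tw18 against tw18/+ 1 was higher, *Rcor1*, named here after its values were seen, beside 14.9% of all genes.

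Because E-boxes are the motif that the SNAI, ZEB and TWIST proteins bind, the promoters of 3 members were examined: *Snai1* as the most abundant factor gene, *Twist1* as a gene called higher and *Crb2* as the gene called lower. The sequences are from RefSeq (GRCm38.p6) and run from 250 bases before to 50 bases after the start of the gene, 5′ to 3′ on the strand of the gene. They cover chr2:167537945-167538244 (plus strand) for *Snai1*, chr12:33957421-33957720 (plus strand) for *Twist1* and chr2:37775999-37776298 (plus strand) for *Crb2*. Capitals mark an E-box, searched as CANNTG.
Snai1: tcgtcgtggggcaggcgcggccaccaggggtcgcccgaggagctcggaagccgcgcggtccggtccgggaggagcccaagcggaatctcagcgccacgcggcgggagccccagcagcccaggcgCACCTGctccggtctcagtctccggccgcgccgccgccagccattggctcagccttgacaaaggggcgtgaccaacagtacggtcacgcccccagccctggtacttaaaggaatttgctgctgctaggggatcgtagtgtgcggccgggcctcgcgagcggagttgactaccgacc
Twist1: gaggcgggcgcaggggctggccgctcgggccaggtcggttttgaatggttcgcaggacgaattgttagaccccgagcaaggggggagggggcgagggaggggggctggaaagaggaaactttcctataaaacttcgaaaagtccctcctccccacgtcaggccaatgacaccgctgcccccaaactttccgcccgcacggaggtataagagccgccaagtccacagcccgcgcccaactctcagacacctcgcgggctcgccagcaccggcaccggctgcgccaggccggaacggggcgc
Crb2: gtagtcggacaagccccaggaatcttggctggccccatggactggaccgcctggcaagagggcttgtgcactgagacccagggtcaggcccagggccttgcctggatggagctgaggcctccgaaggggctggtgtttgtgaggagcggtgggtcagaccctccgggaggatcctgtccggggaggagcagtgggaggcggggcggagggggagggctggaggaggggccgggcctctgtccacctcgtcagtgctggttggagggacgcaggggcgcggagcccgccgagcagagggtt
The *Snai1* promoter held 1 match, CACCTG, which is the form bound by SNAI and ZEB proteins, 126 bases before the start. The *Twist1* and *Crb2* windows held none. CANNTG reads the same on both strands, and 72.3% of the 32851 promoters of this length in the table hold at least 1, while 20.2% hold CACCTG on either strand. Windows of *Twist2*, of *Vim* and of 4 start sites of *Zeb2* also held no match. These are letters in a window, with no binding measured.

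*Vim* and *Fn1* were the most abundant members. *Vim*, which encodes the intermediate filament vimentin of mesenchymal cells, had an FPKM of 28.9 in WT, 22.8 in tw18/+ and 55.2 in tw18/tw18. The tw18/tw18 value was the highest, with log2 ratios of 0.93 to WT (interval 0.82 to 1.05) and 1.27 to tw18/+ (interval 1.16 to 1.38). The first ratio was just outside the threshold and passed it, with 1.14, when the libraries were rescaled to equal sums. *Fn1*, which encodes the matrix glycoprotein fibronectin, had 39.2, 30.4 and 43.7, with a log2 ratio of 0.16 between tw18/tw18 and WT. Its tw18/tw18 and tw18/+ levels differed by 1.44-fold, a log2 ratio of 0.52, which passed the threshold, with 1.21, when the libraries were centred on the epiblast markers.

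The keratins of simple epithelia were higher in tw18/tw18 beside *Vim*. *Krt8* had an FPKM of 74.5 in WT, 75.6 in tw18/+ and 125.9 in tw18/tw18, and its partner *Krt18* had 119, 108 and 186, each below the threshold against WT. The ratio of *Vim* to *Krt8* was 0.389 in WT, 0.302 in tw18/+ and 0.438 in tw18/tw18, so it differed less than *Vim* itself. Among 13 intermediate filament genes beside *Vim*, with these keratins included, 11 reached an FPKM of 1. Of these, 4 were higher in tw18/tw18 than in WT and 0 were lower, beside 15.1% and 6.94% of all genes. The 4 were *Des*, the desmin gene, with 45.5, 65.9 and 200.8, *Krt19* with 15.2, 22.2 and 40.3, the A-type lamin gene *Lmna* with 7.97, 8.51 and 35.5, and the synemin gene *Synm* with 0.388, 0.641 and 2.78.

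The receptors of fibronectin were led by *Itgb1* and *Itga5*, the subunits of its classical integrin. *Itga5* had an FPKM of 29.6 in WT, 21.9 in tw18/+ and 40.7 in tw18/tw18, the same order as *Fn1*, and *Itgb1* had 41.6, 41.8 and 47.7. Of 7 fibronectin-binding integrin genes that reached an FPKM of 1, 4 were higher in tw18/tw18 than in WT and 0 were lower. Over all genes 15.1% were higher and 6.94% lower. The 4 were *Itgb3* (2.69 in WT and 5.63 in tw18/tw18), *Itga8* (0.589 and 2.21), *Itga4* (0.862 and 1.97) and *Itga9* (0.527 and 1.69), all at low levels, and 1 was higher with a pseudocount of 1 or an FPKM filter of 5.

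The cadherin pair that exchanges during EMT differed little on the deposited scale. *Cdh1* (E-cadherin) had an FPKM of 125 in WT, 142 in tw18/+ and 133 in tw18/tw18, and *Cdh2* (N-cadherin) had 20.03, 21.0 and 24.3. The ratio of *Cdh2* to *Cdh1* was 0.160, 0.148 and 0.182. Between tw18/tw18 and tw18/+, the libraries with the highest and the lowest *Zeb2*, *Cdh1* had a log2 ratio of -0.09. Centring on the epiblast markers adds 0.68 to each log2 ratio of that comparison. In bulk libraries *Zeb2* and *Cdh1* need not come from the same cells, and a relation between them was not tested.

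Mesenchymal genes beyond the members were largely higher in tw18/tw18. Of 23 such genes, 14 were higher and 0 lower than in WT, beside 15.1% and 6.94% of all genes. The 23 had a median difference of log2(FPKM + 1) of 1.16, and their summed FPKM was 359 in WT, 371 in tw18/+ and 1012 in tw18/tw18. The matricellular protein gene *Sparc* had 136, 160 and 358, the calcium-binding protein gene *S100a4* had 70.1, 58.0 and 194, and the type I collagen genes *Col1a1* and *Col1a2* had 35.9, 32.0 and 174 and 7.29, 6.63 and 35.5. In tw18/+ against WT 1 of 22 was higher and 2 were lower, beside 4.7% and 5.02% of all genes. The epithelial genes were not lower as a group. Of 23 tested, 6 were higher in tw18/tw18 than in WT and 2 were lower, beside 15.1% and 6.94% of all genes. Centred on the epiblast markers, 11 were higher and 0 lower. The epithelial genes had a sum of 878 in WT, 952 in tw18/+ and 1043 in tw18/tw18. *Krt19*, the claudin gene *Cldn4* (7.24, 9.65 and 16.9) and the membrane protease gene *St14* (7.63, 8.78 and 15.5) were among the higher ones, and the trafficking GTPase gene *Rab25* (40.1, 31.5 and 18.8) was lower.

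**Figure D3:**
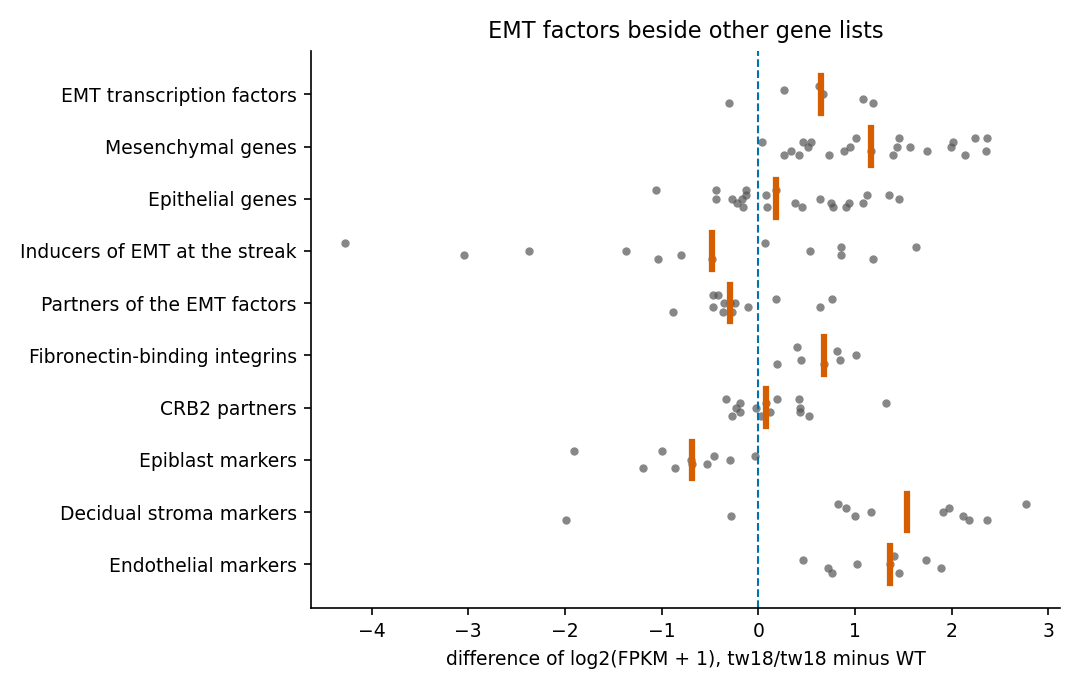
Difference of log2(FPKM + 1) between tw18/tw18 and WT for the genes of 10 lists that reached an FPKM of 1; grey points are genes, orange bars list medians, and the dashed line the median over all genes (-0.0074). The medians of the EMT transcription factors (0.64), the mesenchymal genes (1.16), the decidual stroma markers (1.54) and the endothelial markers (1.36) lie above it, and that of the epiblast markers (-0.69) below.

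Stromal and endothelial markers were largely higher in tw18/tw18, as the mesenchymal genes were. Against WT, 9 of 12 decidual stroma markers, *Des* among them, were higher in tw18/tw18 and 1 was lower, and 6 of 9 endothelial markers were higher and 0 lower. Over all genes 15.1% were higher and 6.94% lower. Against tw18/+, where *Twist2*, *Zeb1*, *Zeb2* and *Vim* were higher, 11 of 12 decidual and 8 of 9 endothelial markers were higher in tw18/tw18, beside 14.9% of all genes. In tw18/+ against WT, 0 of 12 decidual markers were higher and 1 lower, and 2 of 8 endothelial markers were higher and 2 lower. Over all genes 4.7% were higher and 5.02% lower there. The median differences of log2(FPKM + 1) were 0.15 for the decidual and -0.024 for the endothelial markers, unlike the -0.34 of the 10 members. *Hand2*, a transcription factor gene of the decidual stroma list, had 27.5 in WT, 16.3 in tw18/+ and 63.0 in tw18/tw18, the order of *Twist2*, *Zeb1*, *Zeb2*, *Vim* and *Fn1*. The study instead counts *Hand2* among lateral mesoderm regulators that were higher in the mutant. It takes mesoderm formation downstream of BMP signalling to appear unaffected. These readings were not tested against each other here. The uterine HOX genes *Hoxa10* (7.64, 11.8 and 32.9) and *Hoxa11* (3.67, 6.87 and 30.8) had the order of *Snai2* and *Twist1*. Any gene highest in tw18/tw18 must follow either of these orders, so a shared order shows nothing about the source of the RNA. The part of decidual and endothelial tissue in the levels of the members was not tested. The marker called lower was *Prl8a2*, which stood below WT in both libraries with the deletion, as *Crb2* did. Unlike *Crb2*, it was higher in tw18/tw18 than in tw18/+, with a log2 ratio of 1.28.

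The signals and factors that start EMT at the streak were split. Of 15 such genes, 13 reached an FPKM of 1, and 4 were higher and 6 lower in tw18/tw18 than in WT, beside 15.1% and 6.94% of all genes. There were 2 higher under a pseudocount of 1 and 3 lower when centred on the epiblast markers. *Eomes* and *Fgf8* were lower, as was the homeobox gene *Mixl1*, with 33.9 in WT, 27.5 in tw18/+ and 5.76 in tw18/tw18. The other lower ones, named after their values were seen, were the T-box gene *T* (18.3, 6.16 and listed at 0), the mesoderm factor gene *Mesp1* (7.26, 0.530 and listed at 0) and the ligand gene *Wnt3* (5.16, 3.38 and 2.54). *T* and *Mesp1* were also lower in tw18/+ than in WT. *Wnt3* only just passed the threshold, with a log2 ratio of -1.02, and with a pseudocount of 0.1 the list had 5 lower. The study describes *Wnt3* as not significantly dysregulated. The higher ones were the TGFβ receptor gene *Tgfbr2* (6.21, 3.96 and 21.4) and, named after their values were seen, the ligand genes *Tgfb1* (1.97, 2.23 and 5.75), *Tgfb2* (2.73, 1.58 and 5.73) and *Fgf4* (3.85, 3.92 and 7.76). *Tgfbr2* and *Tgfb2* were lowest in tw18/+, as were *Zeb1* and *Zeb2*. Of 9 primitive streak markers, 7 also stand in the lists of signals and other EMT factors. Of the 8 tested, 6 were lower, the direction of *Crb2*, and 0 higher, beside 6.94% and 15.1% of all genes. All 6 are shared with those lists, so this count repeats them, and the markers outside those lists were not called. The sum of the 9 was 208, 148 and 92.0.

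The genes whose levels over the 3 libraries lay nearest to a member were sought among the 11069 genes that reached an FPKM of 1 in each. The distance was Euclidean on log2(FPKM + 1). For *Snai2* the nearest were *Iqsec2*, *E330023G01Rik* and *Fbxl4* at distances of 0.10 to 0.14, for *Twist1* they were *Naif1*, *Pde4a* and *Cdkl2* at 0.096 to 0.12, and for *Zeb2* they were *Dnajb14*, *Ptp4a3* and *Rasgrp1* at 0.080 to 0.17. With only 3 libraries, 14 to 16 genes lay within 0.25 of each of these members.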

How the data were processed

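The authors mapped strand-specific 50 bp paired-end reads of ribosomal RNA-depleted total RNA to mm10 (GRCm38) and deposited FPKM values per gene from Cuffdiff, 1 library per genotype. The submitters' processing notes name TopHat2, Bowtie 1.0.0 and Cufflinks 2.2.1. The gene annotation and library normalization are not given in the sources used here.

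Ratios were computed from the deposited FPKM without a pseudocount, using Python 3.11.15, numpy 2.4.6, pandas 2.3.3, scipy 1.17.1 and matplotlib 3.10.9. A call needed a log2 ratio of at least 1 in size and an FPKM of at least 1 in the higher library. The code of the call was run on simulated data with changes well past the threshold, little noise and no low levels. That run cannot show how the call does for members at low FPKM or near the threshold. Fragments were estimated from the steps of low FPKM values, with an allowance of 150 bp for fragment length. Positions and shared sequence came from GENCODE M21 (GRCm38). *Epb41l5* and 6 other band 4.1 genes were matched through older symbols in RefSeq.

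Named genes were the 10 members and, of 9 lists by role and 10 marker lists, at most 4 called genes per list by the higher FPKM, plus *Cdh1*, *Cdh2*, *Itga5*, *Itgb1*, *Eomes*, *Krt8*, *Krt18*, *Des* and *Ppp2r1a*. Members and lists were chosen with earlier results of these data known. Some genes stand in more than 1 list. Alternatives were pseudocounts of 0.1 and 1, no filter, an FPKM filter of 5, 3 other scalings and tw18/+ as the reference.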

Additional observations from a re-analysis of the deposited data

How the results depend on the processing

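No paired analysis was possible because there was 1 library per genotype and no test. In tw18/tw18 against WT, 3 members were higher and 1 lower; an FPKM filter of 5 left 1 higher (*Zeb2*) and 0 lower, rescaling to equal sums gave 5 higher, and centring on the epiblast markers gave 7 higher. In tw18/+ against WT, 1 was higher and 1 lower; a pseudocount of 1 or an FPKM filter of 5 left 0 higher and 0 lower, and 2 were lower without a filter (*Twist2* added) or with equal sums (*Zeb1* added). In tw18/tw18 against tw18/+, 4 were higher and 0 lower; an FPKM filter of 5 left 2 higher, centring on the epiblast markers gave 7 higher, and without a filter 1 was lower (*Crb2*). Rescaling to equal sums added 0.21 to each log2 ratio of tw18/tw18 to WT, and centring on the epiblast markers 0.70. That centring takes the epiblast markers as unchanged in the median. Their log2 ratios of tw18/tw18 to WT ran from -1.96 (*Tdgf1*) to -0.04 (*Sox3*), both named after their values were seen. The study itself reports *Tdgf1* as a Nodal target lowered in the mutant. Values after this centring are therefore no correction for tissue content. Of 160 alternative log2 ratios of the members, 117 lay within the counting interval and 43 moved outside it, and 0 called ratios changed sign. The ratios with tw18/+ as the reference, a different comparison set against the interval of the ratio to WT, all lay outside. Genes with few fragments have wide intervals, so a ratio that stays within its interval is not thereby better measured. The low depth of *Twist1*, *Twist2*, *Snai2* and *Crb2*, with 7 to 169 fragments per library, limits their ratios most. With 1 library per genotype, the spread between embryos is not known.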

Other observations

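Other transcription factors linked to EMT were read from a list of 9, of which 7 reached an FPKM of 1 in tw18/tw18 or WT. The paired-related homeobox genes *Prrx1* and *Prrx2*, known from limb and craniofacial mesenchyme, were higher in tw18/tw18, with 0.740 in WT, 0.813 in tw18/+ and 3.42 in tw18/tw18 for *Prrx1* and 2.76, 2.34 and 7.62 for *Prrx2*. *Sox9*, a factor of cartilage and several epithelia, was also higher, with 0.559, 0.888 and 1.38. *Gsc*, a homeobox gene of the anterior streak, was lower, with 12.0, 6.76 and 2.53. Thus 3 of the 7 were called higher and 1 lower, beside 15.1% and 6.94% of all genes, and with 7 genes the count is read no further.

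Markers of other extra-embryonic tissues were read in the same libraries. Compared with WT, tw18/tw18 had differences in most of these lists: 6 of 8 extra-embryonic ectoderm markers were higher and 1 lower, 7 of 9 parietal endoderm markers were higher and 0 lower, 4 of 5 extra-embryonic mesoderm markers were higher and 0 lower, 3 of 5 trophoblast giant cell markers were higher and 1 lower, and 3 of 6 immune markers were higher and 0 lower. The summed FPKM of the extra-embryonic ectoderm markers was 111 in WT, 87.3 in tw18/+ and 108 in tw18/tw18. *Eomes*, the marker of this list called lower and also a streak gene, made up 77.1, 58.0 and 37.0 of these sums. The sum of the extra-embryonic mesoderm markers was 17.2, 18.7 and 52.8, of which *Hand1* made up 9.31, 14.0 and 34.6. Its higher markers *Hand1*, *Bmp4* and *Kdr* also stand in the giant cell, extra-embryonic ectoderm and endothelial lists, so these counts repeat them. The sum of the trophoblast giant cell markers was 135, 86.5 and 260. Most of it was *Prl3d1* (113, 61.5 and 202), named here after its values were seen and not called in tw18/tw18 against WT. *Prl3b1* and *Ctsq*, of the giant cell list, were listed at 0 in all 3 libraries. None of the 10 visceral endoderm markers was called in tw18/tw18 against WT, and 3 of 10 epiblast markers were lower. Over all genes 15.1% were higher and 6.94% lower in this comparison.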
